A study of Homo sapiens with 12 samples.

Results

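The retinoid genes described here were 9 genes of vitamin A storage, transport, oxidation and binding: LRAT, RBP4, CRABP1, CRABP2, SDR16C5, DHRS9, DHRS3, ALDH1A1 and ALDH1A3. They were taken by gene name from tables of RNA sequencing counts, in which all 9 were among the 60612 rows for HCCLM3 and 7 were among the 32507 rows for LX2. The human lines were HCCLM3 (hepatoma) and LX2 (hepatic stellate), each labelled wild type (WT). The 4 groups of 3 libraries were HCCLM3 with LX2, HCCLM3 alone, LX2 with HCCLM3 and LX2 alone, all kept in a tumor-on-a-chip device. The genes were selected on their fold change with co-culture, already known from these counts, so their own changes are described below as values, and counts of calls over them are no evidence.

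Retinol, the alcohol form of vitamin A, is carried in blood by retinol-binding protein, and in the liver most of it is kept by stellate cells as retinyl esters in lipid droplets. Cells oxidise retinol to retinal, a reversible step, and retinal to retinoic acid, a step that is not reversed. Retinoic acid binds the nuclear receptors RAR, which pair with RXR and act on target genes. Stellate cells that become activated, as in fibrosis, are known to lose their retinoid stores.

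Libraries held 65675929 to 68178411 counts in HCCLM3 with LX2, 68088914 to 77712308 in HCCLM3 alone, 64438991 to 69891842 in LX2 with HCCLM3 and 61836616 to 65314354 in LX2 alone. A gene with no count could stand at up to 0.0485 CPM (counts scaled to library size) in the shallowest library, the limit that 3 counts set. The labels do not tell whether the 3 libraries of a group were separate cultures, and each p therefore measures only a spread among libraries that could be technical. HCCLM3 with LX2 also held 6527 to 9048 counts of 7 red blood cell genes, against 0 to 6 in HCCLM3 alone, and 1392 to 1753 counts of 9 leukocyte genes, against 322 to 622. The summed level of 5 epithelial genes was 630 to 732 FPKM (fragments scaled by gene length and library size) in HCCLM3 with LX2 and 990 to 1131 FPKM in HCCLM3 alone. In LX2, 11 hepatocyte genes summed to 186 to 206 FPKM in LX2 with HCCLM3 and 67.02 to 68.3 FPKM in LX2 alone, mostly by CPS1 (198 FPKM in LX2 with HCCLM3 and 67.6 FPKM in LX2 alone on average). The 17 stellate genes summed to 16.4 to 16.9 FPKM in LX2 with HCCLM3 and 11.5 to 12.03 FPKM in LX2 alone. Of those that averaged at least 1 FPKM in either LX2 group, COL1A1 and ACTA2 were higher and LHX2, PDGFRB and LUM lower with co-culture. Averages in LX2 with HCCLM3 and in LX2 alone were 7.56 and 2.72 FPKM for COL1A1 and 2.81 and 1.37 FPKM for ACTA2. In the same order they were 3.9 and 4.16 FPKM for LHX2, 1.996 and 2.38 FPKM for PDGFRB and 0.264 and 1.02 FPKM for LUM. These lists move with co-culture, and their part in the retinoid values was not tested.

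Of the 17 stellate cell genes, 3 had no count in LX2 with HCCLM3 and 7 had none in LX2 alone. On average, 4 reached 1 FPKM in LX2 with HCCLM3 and 5 in LX2 alone. LRAT is a hallmark of retinoid storage. Neither LRAT nor CRABP1 had a row in the LX2 table used here, in which every row held at least 1 count. Hepatocyte markers were sparse in HCCLM3, where 2 of 11 genes reached 1 FPKM on average in HCCLM3 with LX2 and 1 of 11 in HCCLM3 alone.

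By level per gene length, ALDH1A1, CRABP2, DHRS3 and RBP4 were the most abundant of these genes in HCCLM3, and DHRS3, SDR16C5 and ALDH1A3 in LX2 alone. With co-culture, CRABP2 was higher in both lines and SDR16C5 lower in both. ALDH1A3 was higher in HCCLM3 and lower in LX2, and DHRS9 was lower in HCCLM3 and higher in LX2. In bulk RNA, fewer cells of a type and less RNA per cell cannot be told apart. Calls were made at an adjusted p under 0.05 by the edgeR quasi-likelihood test over all genes. In HCCLM3, 8 of the 9 genes passed the filter on low counts and 5 of them were called, 3 higher and 2 lower, beside 21.7% of all 18045 genes tested (10.1% higher and 11.6% lower). The libraries of the groups did not overlap for the same 5, beside 44.4% of all genes (32.3% higher and 12.1% lower). In LX2, 7 passed and 6 were called, 4 higher and 2 lower, beside 31.9% of 19671 genes (15.4% higher and 16.6% lower). The libraries did not overlap for any of the 7, of which 5 were higher and 2 lower, beside 48.3% of all genes (26.2% higher and 22.1% lower). Since those contrasts chose the genes, nothing is read from these counts. ALDH1A3 in HCCLM3 and DHRS9 and RBP4 in LX2 could pass the filter only through their co-cultured libraries. Single libraries decided some of these calls. That of LRAT ended without HCCLM3 with LX2 replicate 1 or 3 or HCCLM3 alone replicate 1 or 3, and that of ALDH1A3 in HCCLM3 without HCCLM3 with LX2 replicate 1 or 2 or HCCLM3 alone replicate 2. RBP4 in LX2 was called without LX2 alone replicate 3. In all, 3 to 4 genes in HCCLM3 and 6 to 7 in LX2 were called with libraries left out in turn. The median log2 fold change of the tested genes was -0.17 in HCCLM3, where that of all genes was 0.03. In LX2 it was 1.82, where that of all genes was 0.01. The genes were chosen by these changes, so nothing is read from the medians either. The LX2 median is the value of CRABP2, whose excess in LX2 is set against that of HCCLM3 transcripts below.

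**Figure D1:**
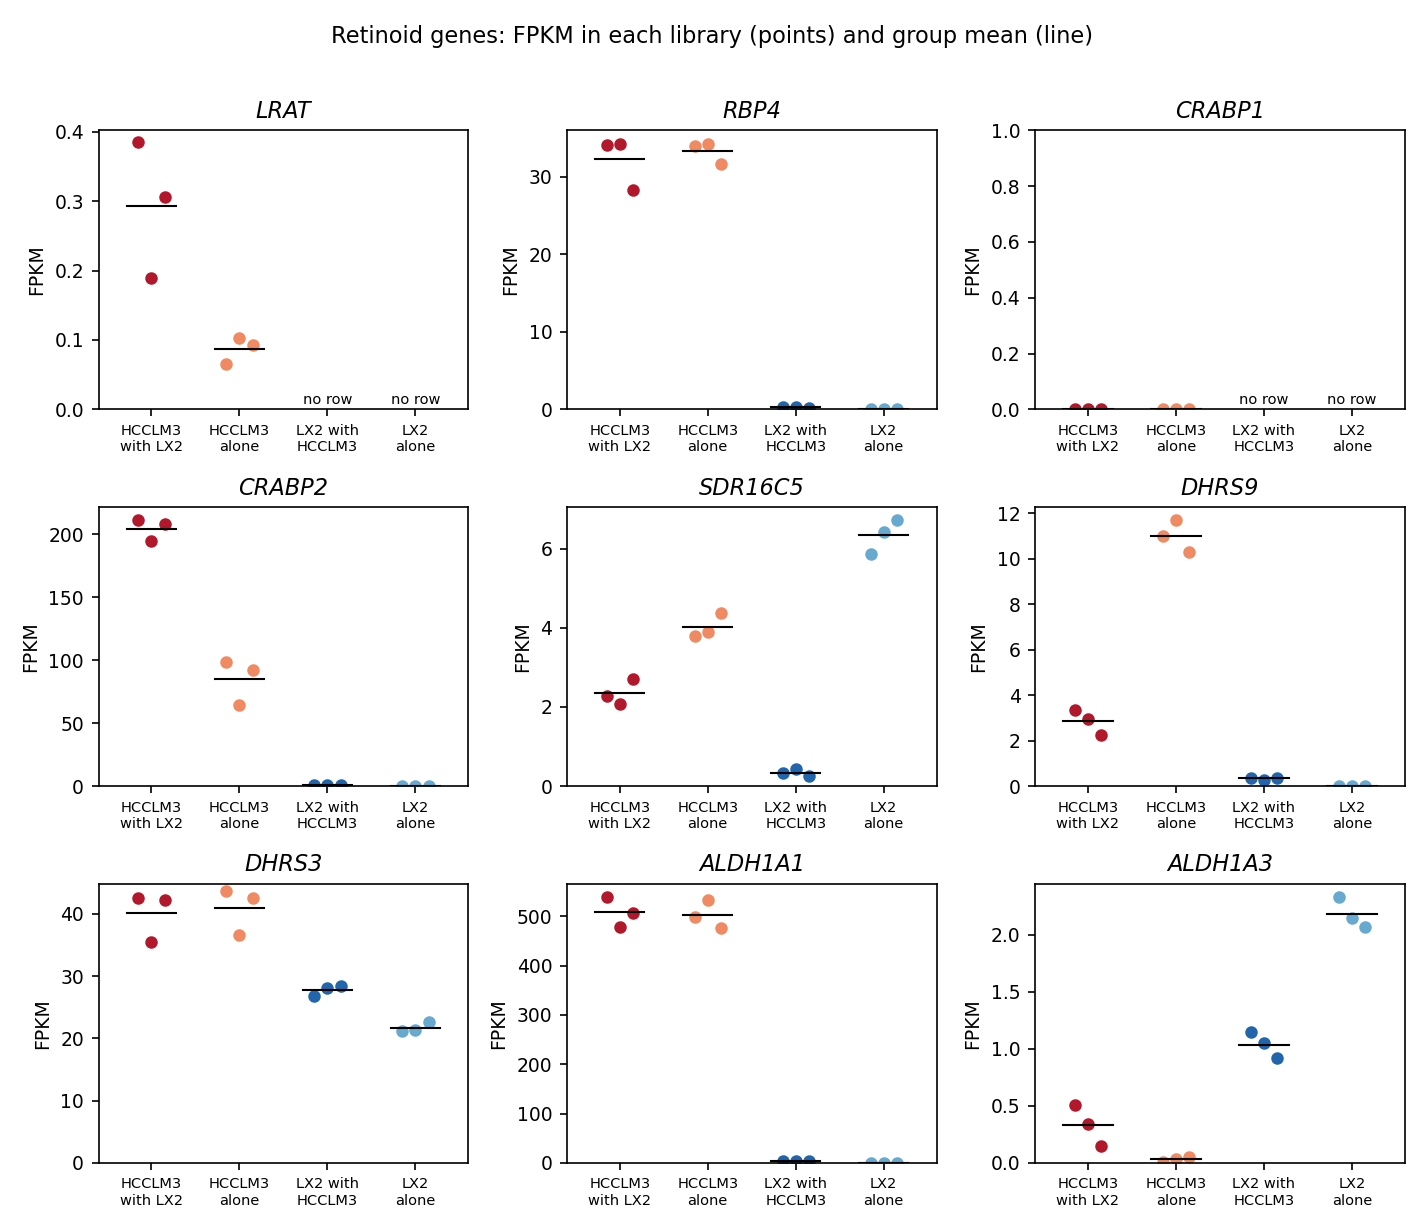
FPKM of the retinoid genes in each library by group, on a linear axis per gene that starts at 0, with co-cultured libraries left of those of the same line alone. Points are libraries and lines are group means. CRABP2 sits at 194 to 211 FPKM in HCCLM3 with LX2 and 64.7 to 98.4 FPKM in HCCLM3 alone, and SDR16C5 at 0.243 to 0.443 FPKM in LX2 with HCCLM3 and 5.88 to 6.73 FPKM in LX2 alone.

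LRAT (ENSG00000121207; chromosome 4, 154626945 to 154753118, plus strand) encodes the enzyme that turns retinol into its storage ester. It gave 0.386, 0.189 and 0.306 FPKM in HCCLM3 with LX2 (230, 118 and 185 counts), against 0.0654, 0.103 and 0.0923 FPKM in HCCLM3 alone (47, 72 and 57 counts). The co-cultured libraries all stood above those alone, with replicate 2 the lowest of them, and the log2 fold change was 1.58 ± 0.34 (SE). All values are below 1 FPKM. With libraries left out in turn, the log2 fold change ranged from 1.32 to 1.82.

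RBP4 (ENSG00000138207; chromosome 10, 93591687 to 93601744, minus strand) encodes the plasma carrier of retinol, a product of hepatocytes. It gave 34.1, 34.2 and 28.4 FPKM in HCCLM3 with LX2, against 33.9, 34.3 and 31.7 FPKM in HCCLM3 alone. These ranges overlapped, and the log2 fold change was -0.21 ± 0.10 (SE). Its level in LX2 with HCCLM3 was 0.272, 0.343 and 0.229 FPKM (31, 41 and 29 counts), against 0.0803, 0.0707 and 0 FPKM in LX2 alone (10, 8 and 0 counts). All 3 co-cultured libraries stood above those alone, with a log2 fold change of 2.36 ± 0.88 (SE). Without LX2 alone replicate 3, the library with no count, it was 1.77.

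CRABP1 and CRABP2 encode the cellular retinoic acid-binding proteins of the cytosol, and CRABP2 is known to hand retinoic acid to its nuclear receptor. CRABP1 (ENSG00000166426; chromosome 15, 78340353 to 78348225, plus strand) had no count in any of the 6 HCCLM3 libraries. CRABP2 (ENSG00000143320; chromosome 1, 156699606 to 156705816, minus strand) gave 211, 194 and 208 FPKM in HCCLM3 with LX2, against 98.4, 64.7 and 92.2 FPKM in HCCLM3 alone. The groups lay far apart, with HCCLM3 alone replicate 2 the lowest, and the log2 fold change was 1.10 ± 0.16 (SE). Co-cultured LX2, that is LX2 with HCCLM3, gave 0.634, 0.903 and 0.896 FPKM (53, 80 and 81 counts), against 0.269, 0.197 and 0.201 FPKM in LX2 alone (23, 16 and 17 counts). Every co-cultured LX2 library stood above every one alone, with a log2 fold change of 1.82 ± 0.29 (SE) from a level below 1 FPKM.

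The promoter of CRABP2 is shown because CRABP2 was the gene of this set that was higher with co-culture in both lines. Its excess in LX2 with HCCLM3 was 0.691% of its level in HCCLM3 alone. That lies inside the range of the HCCLM3 transcripts described below, whose part was not tested. Of the 8 genes with a promoter in the RefSeq table, only CRABP2 held a 6-base element (12.5%, beside 38.6% of all promoters). The search took the 6-base element AGGTCA, its variant AGTTCA, the further variant GGGTCA and lastly GGTTCA, on both strands, in windows of 250 bases before to 50 after the start, and these occur in 38.6% of 35116 promoters. Direct repeats of the elements at gaps of 1, 2 or 5 bases, each of which also holds single elements, occur in 0.131%, 0.0399% and 0.0883% of promoters, and in none of the 8. The 250 bases before the start (RefSeq, GRCh38.p14, chr1:156705785-156706034, minus strand) have the element in capitals, starting 249 bases before the start. A match is a description of letters and does not show a bound site.
CRABP2: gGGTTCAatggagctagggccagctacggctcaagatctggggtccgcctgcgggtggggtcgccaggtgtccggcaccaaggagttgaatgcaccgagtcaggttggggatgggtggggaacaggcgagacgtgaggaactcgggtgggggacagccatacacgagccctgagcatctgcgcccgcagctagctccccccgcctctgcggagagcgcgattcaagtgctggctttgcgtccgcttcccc

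SDR16C5 (ENSG00000170786; chromosome 8, 56300010 to 56320682, minus strand) and DHRS9 (ENSG00000073737; chromosome 2, 169064789 to 169096167, plus strand) encode short-chain dehydrogenases that oxidise retinol to retinal. SDR16C5 gave 2.28, 2.09 and 2.71 FPKM in HCCLM3 with LX2, against 3.80, 3.89 and 4.38 FPKM in HCCLM3 alone. The groups did not overlap, and the log2 fold change was -0.93 ± 0.14 (SE). Its level was 0.343, 0.443 and 0.243 FPKM in LX2 with HCCLM3 (87, 120 and 67 counts), against 5.88, 6.43 and 6.73 FPKM in LX2 alone (1503, 1552 and 1714 counts). The log2 fold change in LX2 was -4.22 ± 0.22 (SE), an 18.7-fold lower level, so that LX2 held the highest level of SDR16C5 alone and the lowest in co-culture.

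DHRS9 gave 3.37, 2.95 and 2.24 FPKM in HCCLM3 with LX2 (995, 905 and 671 counts), against 11.0, 11.7 and 10.3 FPKM in HCCLM3 alone (3843, 3964 and 3138 counts). All 3 co-cultured libraries lay well below those alone, 4.32-fold lower by the fit (log2 fold change -2.11 ± 0.17, SE). The LX2 with HCCLM3 libraries gave 0.355, 0.286 and 0.361 FPKM (103, 89 and 113 counts), against 0 counts in each library of LX2 alone. Set against a floor of 3 counts for LX2 alone as a group, it was at least 96.4-fold higher in LX2 with HCCLM3.

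DHRS3 (ENSG00000162496; chromosome 1, 12567910 to 12618210, minus strand) encodes the enzyme of the reverse step, which reduces retinal to retinol and is itself known to be raised by retinoic acid. It gave 42.6, 35.5 and 42.2 FPKM in HCCLM3 with LX2, against 43.7, 36.7 and 42.6 FPKM in HCCLM3 alone. The ranges overlapped and the log2 fold change was -0.20 ± 0.11 (SE). In LX2 with HCCLM3 it gave 26.8, 28.1 and 28.4 FPKM, against 21.1, 21.3 and 22.7 FPKM in LX2 alone. The LX2 groups did not overlap, with a log2 fold change of 0.33 ± 0.04 (SE). DHRS3 was thus the gene of the set with the most even level over the 4 groups, at 21.1 to 43.7 FPKM in every library.

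ALDH1A1 and ALDH1A3 encode retinal dehydrogenases, which make retinoic acid. ALDH1A1 (ENSG00000165092; chromosome 9, 72900671 to 73080442, minus strand) gave 539, 479 and 507 FPKM in HCCLM3 with LX2, against 499, 533 and 476 FPKM in HCCLM3 alone. It was the most abundant gene of the set in HCCLM3, its groups overlapped, and the log2 fold change was -0.15 ± 0.08 (SE) and turned to 0.03 when scaled by library totals. Its level in LX2 with HCCLM3 was 2.76, 2.98 and 2.95 FPKM (601, 694 and 699 counts), against 0.151, 0.0535 and 0.0686 FPKM in LX2 alone (34, 12 and 16 counts). The LX2 groups lay far apart, with a log2 fold change of 4.90 ± 0.35 (SE).

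ALDH1A3 (ENSG00000184254; chromosome 15, 100877714 to 100916626, plus strand) gave 0.509, 0.342 and 0.146 FPKM in HCCLM3 with LX2 (215, 149 and 64 counts), against 0.00794, 0.0358 and 0.0516 FPKM in HCCLM3 alone (4, 18 and 23 counts). The co-cultured libraries differed widely among themselves but all stood above those alone, with a log2 fold change of 3.20 ± 0.72 (SE). With libraries left out in turn, it ranged from 2.73 to 3.70. In LX2 with HCCLM3 it gave 1.15, 1.05 and 0.916 FPKM, against 2.33, 2.14 and 2.07 FPKM in LX2 alone. The LX2 groups did not overlap, and the log2 fold change was -1.10 ± 0.11 (SE). The antisense gene AC015712 (ENSG00000259583) overlaps ALDH1A3 and gave 164, 119 and 172 counts in LX2 with HCCLM3 and 217, 208 and 213 in LX2 alone. As no source used here states the strand setting of the counting, reads of that pair cannot be told apart.

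**Figure D2:**
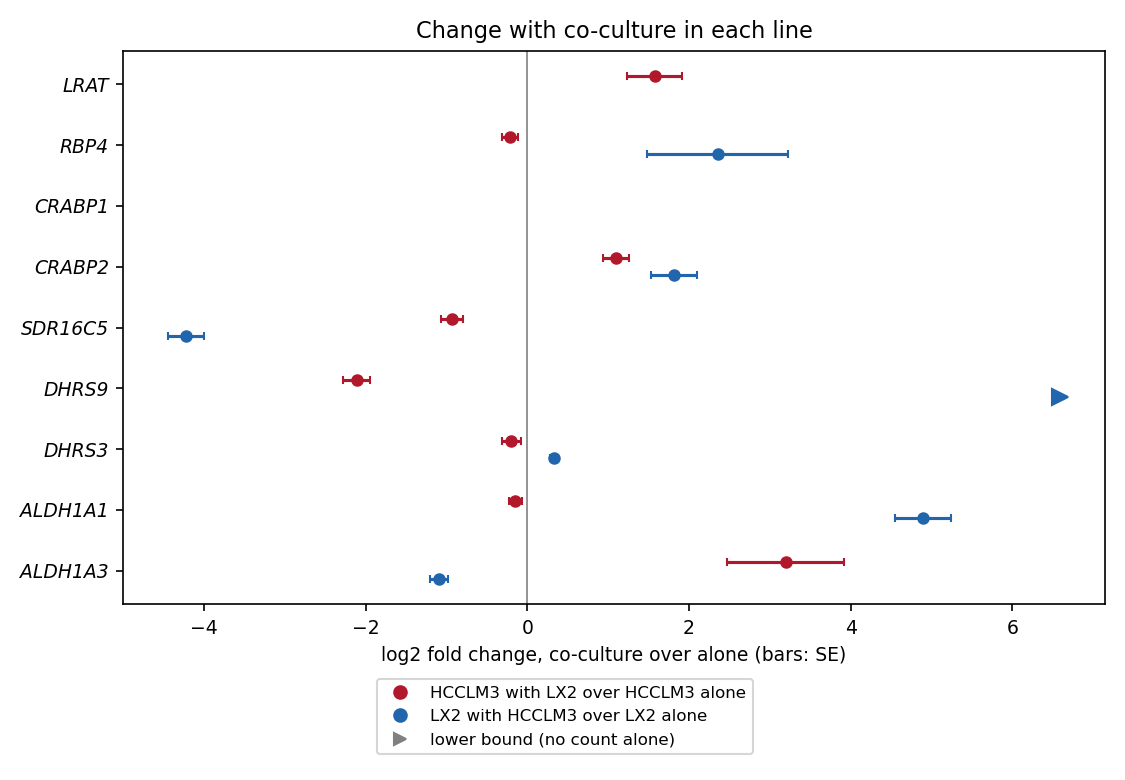
Log2 fold change with co-culture over alone for each retinoid gene (bars, SE), HCCLM3 in red and LX2 in blue; the triangle is the lower bound of DHRS9 in LX2, and CRABP1 and LRAT in LX2 have no value. ALDH1A3 lies at 3.20 in HCCLM3 and -1.10 in LX2, and SDR16C5 at -0.93 in HCCLM3 and -4.22 in LX2.

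Several genes that were higher in LX2 with HCCLM3 are abundant in HCCLM3, so their excess in co-culture was set against that of transcripts typical of HCCLM3. A panel of 55 genes with at least 20 FPKM in HCCLM3 alone and under 0.1 FPKM in LX2 alone stood higher in LX2 with HCCLM3 for 52 of the 55. The median excess was 0.557% of the level in HCCLM3 alone, with a 5th to 95th percentile of 0.0279% to 2.04%. The excess of ALDH1A1 was 0.558% of its HCCLM3 level, that of CRABP2 0.691% and that of RBP4 0.694%, all inside the range of the panel. The excess of DHRS9 was 3.03% of its level in HCCLM3 alone and 11.7% of that in HCCLM3 with LX2, above the 95th percentile on both (2.04% and 2.45%), and that of DHRS3 was 14.8%. In the panel, CXCL5 had the highest excess relative to HCCLM3 alone (3.12%) and VNN1 the highest relative to HCCLM3 with LX2 (4.31%). The 5 epithelial genes summed to 34.6 to 35.8 FPKM in LX2 with HCCLM3 and 40.7 to 42.2 FPKM in LX2 alone. Most of that sum was KRT18, which LX2 expresses alone (29.5 FPKM in LX2 with HCCLM3 and 37.6 FPKM in LX2 alone on average). KRT19, a gene of the panel, averaged 0.328 FPKM in LX2 with HCCLM3 and 0 in LX2 alone, and KRT8 4.35 FPKM in LX2 with HCCLM3 and 2.94 FPKM in LX2 alone. The part of HCCLM3 transcripts in the LX2 values of ALDH1A1, CRABP2 and RBP4 was not tested. A change of RNA in LX2 cells and HCCLM3 transcripts in the sample cannot be told apart for these 3 genes. That part was not tested for DHRS9 or DHRS3 either. DHRS9 averaged 11.0 FPKM in HCCLM3 alone, below the 20 FPKM required of the panel.

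In the other direction, 41 genes typical of LX2 had a median excess in HCCLM3 with LX2 of 0.143% of their level in LX2 alone, with a 95th percentile of 0.620%. The excess of ALDH1A3 in HCCLM3 with LX2 was 13.8% of its level in LX2 alone and 29% of that in LX2 with HCCLM3, above that range. The summed level of the 17 stellate genes was 9.22 to 16.0 FPKM in HCCLM3 with LX2 and 11.7 to 12.5 FPKM in HCCLM3 alone. Most of it was LUM (9.25 FPKM in HCCLM3 with LX2 and 11.0 FPKM in HCCLM3 alone on average). COL1A1 averaged 0.837 FPKM in HCCLM3 with LX2 and 0.259 FPKM in HCCLM3 alone. SPARC averaged 0.712 FPKM in HCCLM3 with LX2 and 0.307 FPKM in HCCLM3 alone. The libraries overlapped for both genes, and replicate 3 was the highest of each group. COL1A1 ranged from 0.0288 to 2.005 FPKM in HCCLM3 with LX2 and 0.0178 to 0.736 FPKM in HCCLM3 alone. In the same order SPARC ranged from 0.113 to 1.64 FPKM and 0.206 to 0.504 FPKM. In LX2 with HCCLM3 SPARC averaged 0.00333 FPKM, and 0 FPKM in LX2 alone. The part of LX2 transcripts in these values was not tested.

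**Figure D3:**
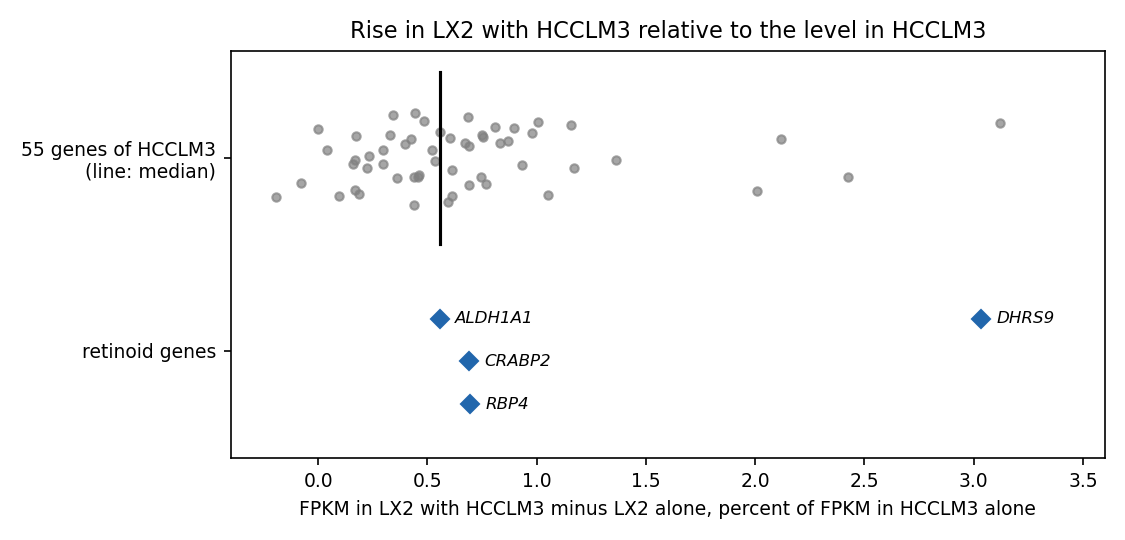
FPKM in LX2 with HCCLM3 minus that in LX2 alone, as a percent of FPKM in HCCLM3 alone: grey points are the 55 genes typical of HCCLM3, placed up and down only to be seen apart, and named points are the retinoid genes. The line is the median of the panel, 0.557%. In LX2 with HCCLM3, ALDH1A1 (0.558%), CRABP2 (0.691%) and RBP4 (0.694%) lie among the panel of 55 genes, and DHRS9 (3.03%) above its 95th percentile.

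The changes of the retinoid genes were also set against each other between lines (the change in HCCLM3 minus that in LX2). The difference was 4.27 ± 0.71 (log2, SE) for ALDH1A3 and 3.26 ± 0.27 for SDR16C5, both positive. It was -5.07 ± 0.28 for ALDH1A1, -2.60 ± 0.55 for RBP4 and -0.55 ± 0.13 for DHRS3. For CRABP2, higher in both lines, it was -0.75 ± 0.29. The LX2 values of ALDH1A1, RBP4 and CRABP2 carry the limit given above for HCCLM3 transcripts in the sample. Of the 7 genes tested, 6 were called, 2 positive and 4 negative, beside 21.2% of all 21511 genes (9.65% positive and 11.5% negative), and nothing is read from this count, since both contrasts chose the genes.

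By the pattern over the 6 libraries of a line, measured as the root mean square difference of centred log2(CPM + 0.5) values, the genes most like DHRS9 in HCCLM3 were GOLGA4 (0.244), AL162582 (0.246) and WNT7B (0.267), out of 6505 genes with at least 5 FPKM in a group. GOLGA4 averaged 1.63 FPKM in HCCLM3 with LX2 and 5.12 FPKM in HCCLM3 alone. The genes most like ALDH1A1 in LX2 were AC026336 (0.392), HES4 (0.413) and RHOV (0.433), and those most like ALDH1A3 in HCCLM3 were GADD45B (0.323), SCNN1A (0.387) and SPINK1 (0.398). These last 2 sets depend on the added 0.5, which shrinks the change of genes with few counts in a group. For DHRS9 in LX2, with no count in LX2 alone, the added 0.5 sets the pattern, and no like genes are given.

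The wider pathway was read over 66 other genes in 8 lists by role. In HCCLM3, 47 of them were tested, of which 9 rose and 7 fell (34.0%, beside 21.7% of all genes), with a median log2 fold change of 0.22. In LX2, 44 were tested, of which 10 rose and 12 fell (50.0%, beside 31.9% of all genes), with a median of 0.02. Both medians are the same with genes that had no count in 1 group set at their bound. Of the 10 that rose in LX2, CES1 and AKR1B10 are themselves in the panel of HCCLM3 transcripts (0.834% and 0.167% of their level in HCCLM3 alone). Adjusted p-values below are from the edgeR quasi-likelihood test.

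Of the genes of uptake and retinol binding, 1 rose and 1 fell of 5 tested in HCCLM3, and 1 rose and 2 fell of 4 tested in LX2, beside the shares over all genes given above. STRA6, the membrane receptor for RBP4, gave 6.69, 6.87 and 7.38 FPKM in HCCLM3 with LX2, against 3.79, 3.33 and 3.97 FPKM in HCCLM3 alone. It rose there in every library (log2 fold change 0.75 ± 0.10, SE, adjusted p = 0.0037) and fell slightly in LX2 (-0.20, adjusted p = 0.0369), a call that ended when scaled by library totals (adjusted p = 0.0613) and without any single LX2 library except LX2 alone replicate 2 (highest adjusted p = 0.108). SCARB1, a scavenger receptor, rose in LX2 (0.57, adjusted p = 0.002), and CD36, a fatty acid and lipid uptake receptor, fell there (-1.75, adjusted p = 0.000201). FABP5, which also binds retinoic acid and has near-identical pseudogene copies, fell in HCCLM3 (-0.69, adjusted p = 0.00519). Of the ester enzymes, 1 of 6 rose in HCCLM3 (16.7%, beside 10.1% of all genes) and none fell. In LX2, 3 of 7 rose (42.9%, beside 15.4% of all genes) and none fell. Of these 3, CES1 is in the panel of HCCLM3 transcripts (0.834% of its level in HCCLM3 alone). The others were PNPLA4 (0.36, adjusted p = 0.00966) and PNPLA3 (0.38, adjusted p = 0.0253), lipases known to act on retinyl esters. The PNPLA3 call ended without LX2 with HCCLM3 replicate 1 or 2 or LX2 alone replicate 1 or 2 (highest adjusted p = 0.0796).

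Of the enzymes between retinol and retinal, 1 rose and 3 fell of 13 tested in HCCLM3 (30.8%, beside 21.7% of all genes), and 4 rose and 4 fell of 10 tested in LX2 (80.0%, beside 31.9% of all genes). RDH10, which oxidises retinol and is needed for retinoic acid in the mouse embryo, moved in opposite directions in the lines. It gave 34.4, 33.2 and 32.0 FPKM in HCCLM3 with LX2, against 39.6, 44.7 and 41.7 FPKM in HCCLM3 alone (log2 fold change -0.50 ± 0.07, SE, adjusted p = 0.00474). In LX2 with HCCLM3 it gave 22.3, 22.1 and 21.9 FPKM, against 7.34, 7.99 and 8.42 FPKM in LX2 alone (1.45 ± 0.06, SE, adjusted p = 1.17e-05). The groups did not overlap in either line, and the difference of the changes was -1.98 ± 0.09 (SE, adjusted p = 2.71e-07).

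Among the retinal reductases of the aldo-keto family, the lowest log2 fold change was that of AKR1B1. It gave 33.9, 37.4 and 38.9 FPKM in LX2 with HCCLM3, against 747, 744 and 743 FPKM in LX2 alone (-4.37, adjusted p = 2.66e-07), and in HCCLM3 it was not called (-0.13, adjusted p = 0.313). AKR1C3 fell in LX2 as well (-3.01, adjusted p = 1.11e-07), though it has near-identical copies among which counts may be split. AKR1B10 fell in HCCLM3 (-0.93, adjusted p = 0.00085) at 1063 ± 45.8 FPKM in HCCLM3 with LX2 and 1807 ± 80.2 FPKM in HCCLM3 alone (SD, n = 3). ADH1C, an alcohol dehydrogenase with close copies, rose in HCCLM3 (1.23, adjusted p = 0.000581).

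Of the other genes for retinoic acid synthesis, AOX1, an aldehyde oxidase, rose in HCCLM3 (log2 fold change 1.49, adjusted p = 0.000785) at 3.39 ± 0.332 FPKM in HCCLM3 with LX2 and 1.07 ± 0.0257 FPKM in HCCLM3 alone (SD, n = 3). ALDH1B1, a mitochondrial aldehyde dehydrogenase, fell in HCCLM3 (-0.64, adjusted p = 0.00163) and in LX2 (-0.66, adjusted p = 7.4e-05). ALDH1A2, the third retinal dehydrogenase of the family, stayed below 0.3 FPKM throughout and was not called (0.65, adjusted p = 0.368, in HCCLM3 and 0.04, adjusted p = 0.923, in LX2). ALDH8A1 had no count in HCCLM3 and was not called in LX2 (0.18, adjusted p = 0.771). CYP26B1, which breaks retinoic acid down, gave 6.48, 6.70 and 7.05 FPKM in LX2 with HCCLM3, against 9.22, 8.95 and 9.70 FPKM in LX2 alone. It fell in LX2 (-0.49, adjusted p = 0.00102). In HCCLM3 its log2 fold change of 0.78 ± 0.32 (SE) was not called (adjusted p = 0.129), with the 1.08 FPKM of HCCLM3 alone replicate 1 the lowest of that line, and the difference of the changes was 1.24 (adjusted p = 0.0298). CYP26A1, also a breakdown enzyme and a strong target of retinoic acid in many cells, had no count in HCCLM3 and 0, 8 and 8 counts in LX2 with HCCLM3, against 16, 14 and 9 in LX2 alone. CYP3A4, of the same list, had no count in LX2 with HCCLM3 and 55 in all in LX2 alone, at least 19.3-fold lower with co-culture. Its call in LX2 (adjusted p = 0.00673) ended with the replicate block (adjusted p = 0.0746).

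Of the 6 nuclear receptors tested per line, 1 fell in HCCLM3 (16.7%, beside 21.7% of all genes called). In LX2, 1 rose and 1 fell (33.3%, beside 31.9% of all genes called). RXRA fell in both lines (log2 fold change -0.55, adjusted p = 0.00279, in HCCLM3 and -0.36, adjusted p = 0.00161, in LX2), and RARA rose in LX2 (0.58, adjusted p = 0.00397). RARB, a receptor gene that retinoic acid is known to raise, gave 3.99, 3.64 and 3.65 FPKM in HCCLM3 with LX2, against 2.34, 3.48 and 2.84 FPKM in HCCLM3 alone. It was not called in HCCLM3 (0.22, adjusted p = 0.373) or in LX2 (-1.16, adjusted p = 0.0634), and the difference of the changes was 1.35 ± 0.43 (SE, adjusted p = 0.047). RARG, RXRB and PPARD were called in neither line.

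The promoter of RARB is shown for comparison with that of CRABP2, as the single one with a direct repeat among the 50 of the 66 pathway genes that the RefSeq table held. Of these 50, 21 held an element (42%, beside 38.6% of all promoters). The 250 bases before the start (RefSeq, GRCh38.p14, chr3:25428013-25428262, plus strand) have in capitals the repeat whose first unit reads GGTTCA and whose second unit reads AGTTCA, with the 5 bases between them, starting 53 bases before the start.
RARB: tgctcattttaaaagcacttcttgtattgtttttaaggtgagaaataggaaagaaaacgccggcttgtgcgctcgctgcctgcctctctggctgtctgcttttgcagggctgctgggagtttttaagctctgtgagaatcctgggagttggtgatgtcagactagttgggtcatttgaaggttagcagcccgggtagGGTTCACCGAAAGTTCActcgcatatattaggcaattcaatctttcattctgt

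Of the genes listed as responsive to retinoic acid, 5 rose and none fell of 11 tested in HCCLM3, beside 10.1% of all genes that rose, and 1 rose and 2 fell of 10 tested in LX2, beside 15.4% of all genes that rose and 16.6% that fell. The median log2 fold change was 0.63 in HCCLM3, where that of all genes was 0.03, and -0.08 in LX2, where that of all genes was 0.01. The HCCLM3 median is the value of CD38, which was not called (adjusted p = 0.766). CD38 had 33 counts in all in HCCLM3 with LX2 and 20 in HCCLM3 alone. RARRES1, a membrane protein induced by retinoids in skin, gave 24.2, 21.0 and 23.1 FPKM in HCCLM3 with LX2, against 6.43, 6.97 and 6.32 FPKM in HCCLM3 alone (1.63 ± 0.10, SE, adjusted p = 0.000489). PLAAT4, also known as retinoic acid receptor responder 3, gave 16.8, 14.5 and 17.3 FPKM in HCCLM3 with LX2, against 5.62, 5.62 and 5.94 FPKM in HCCLM3 alone (1.33 ± 0.12, SE, adjusted p = 0.00102). TGM2, tissue transglutaminase, gave 72.4, 80.4 and 75.9 FPKM in HCCLM3 with LX2, against 42.6, 45.7 and 43.5 FPKM in HCCLM3 alone (0.63 ± 0.06, SE, adjusted p = 0.00149). In all 3 genes the co-cultured libraries stood apart from those alone.

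In LX2, TGM2 fell (log2 fold change -0.43, adjusted p = 0.000332), and the difference between lines was 1.02 (adjusted p = 3.54e-06). RARRES2, which encodes the adipokine chemerin, gave 0.533, 0.519 and 0.661 FPKM in LX2 with HCCLM3, against 7.27, 7.41 and 8.13 FPKM in LX2 alone (-3.75 ± 0.13, SE, adjusted p = 7.77e-06). In HCCLM3 with LX2 it gave 1.69, 1.12 and 1.38 FPKM, against 0.300, 0.425 and 0.392 FPKM in HCCLM3 alone (1.72 ± 0.26, SE, adjusted p = 0.00605). RARRES2 thus rose in HCCLM3 and fell in LX2, with a difference of 5.44 ± 0.30 (SE, adjusted p = 8.12e-07). Retinoids and other signals are both known to act on several genes of this list, so the list is not specific to retinoic acid. MEIS1, a homeobox gene, rose in both lines (0.96, adjusted p = 0.0176, in HCCLM3 and 0.63, adjusted p = 0.00526, in LX2), and the HCCLM3 call ended without replicate 1 or 2 of either HCCLM3 group (highest adjusted p = 0.0585).

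**Figure D4:**
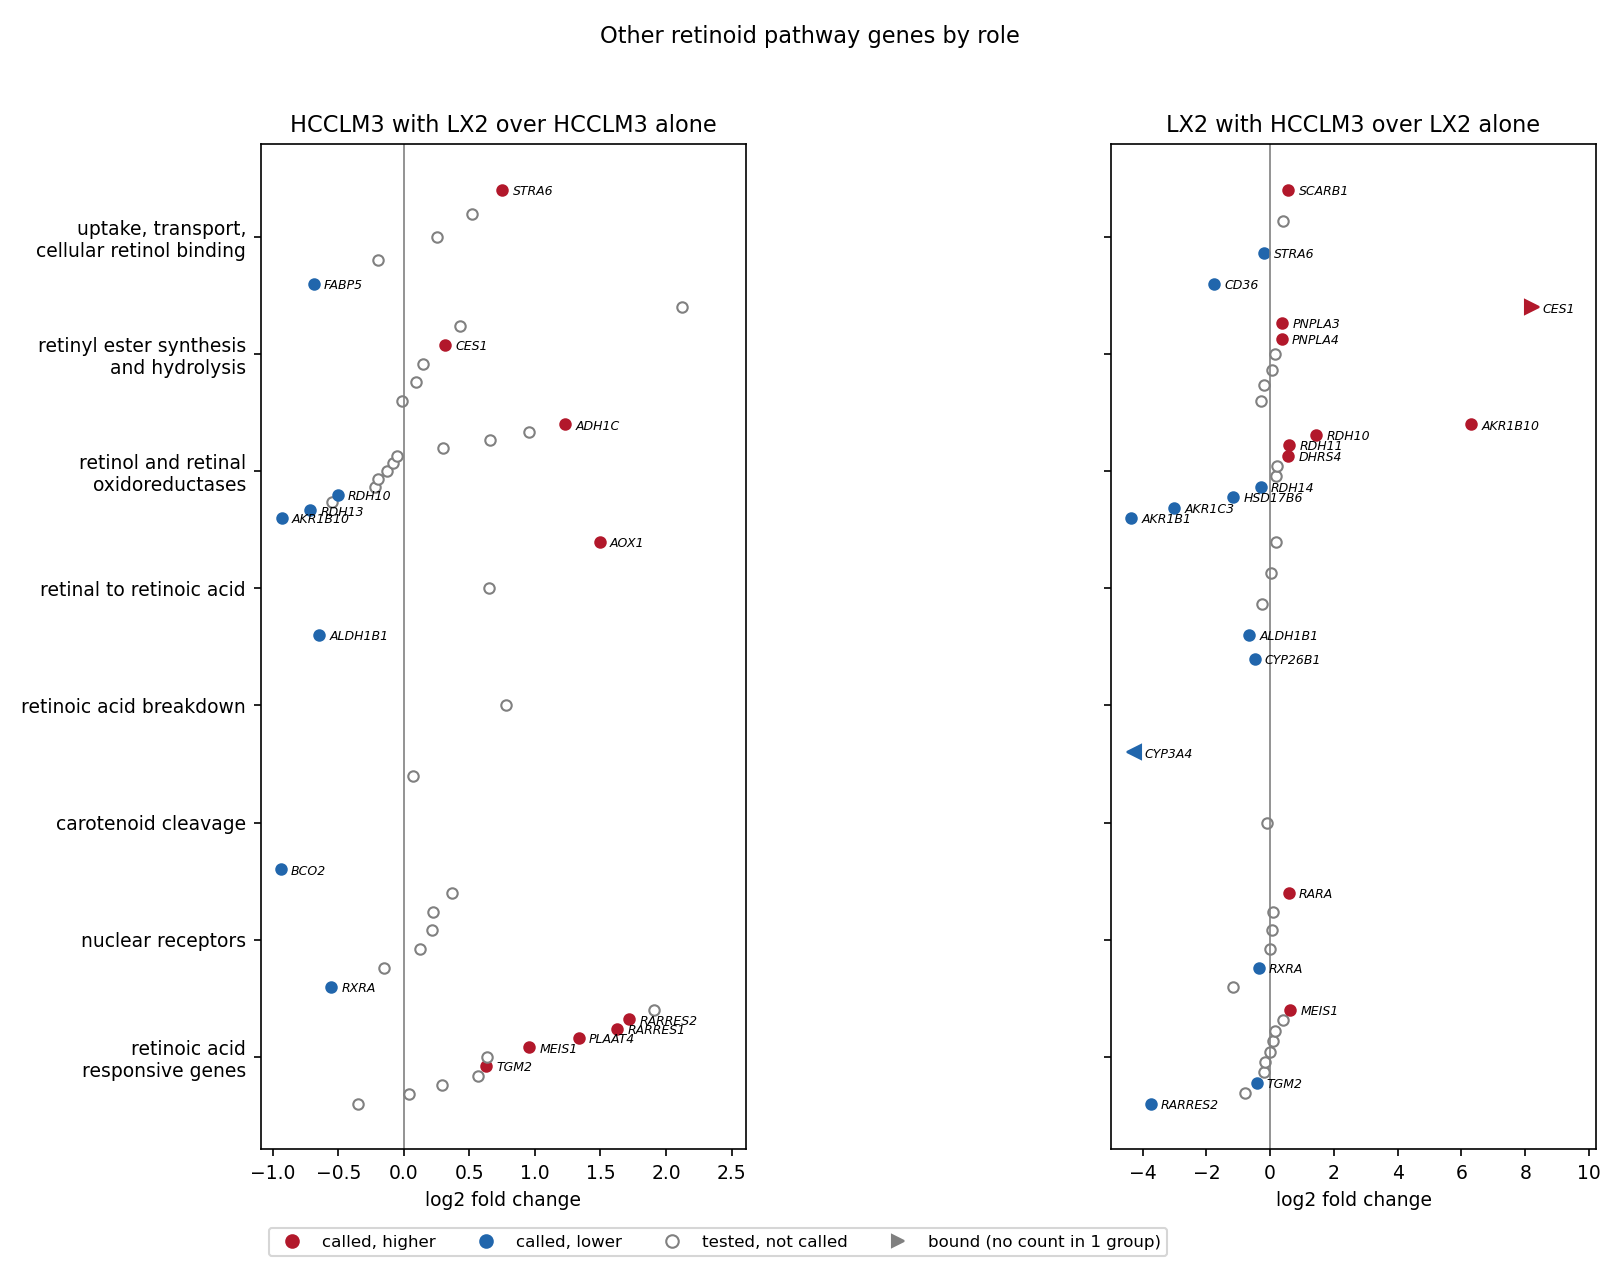
Log2 fold change with co-culture over alone for the other retinoid pathway genes by role, HCCLM3 on the left and LX2 on the right; filled points passed an adjusted p of 0.05 (red higher, blue lower), open points did not, and triangles are bounds for genes with no count in 1 group. Among the retinoic acid responsive genes 5 lie right of 0 as called in HCCLM3, and RARRES2 lies at 1.72 in HCCLM3 and -3.75 in LX2.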

How the data were processed

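RNA of HCCLM3 and LX2 was sequenced in 12 libraries, grouped by the labels of cell line and treatment. Per the file headers, each library has a count and an FPKM column, deposited in 1 table per line. Per the submitters' processing notes, the tools were HISAT2 2.0, StringTie 1.3.0 and Bowtie 0.12.2 in roles not stated, and the build was mm8, which is of mouse. The identifiers are human, and 90.5% of the 58394 found in GENCODE release 29 had the same position there, so positions are given as GRCh38. How HCCLM3 and LX2 cells were separated for extraction is not stated in the sources used. The deposited HCCLM3 table writes 0.0001 FPKM for genes without a count, and these were read as 0. The tables were scaled apart, so levels are set across lines as a description only.

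Deposited counts were compared in a fit per line with the edgeR 4.0.16 quasi-likelihood test (R 4.3.3, TMM, filterByExpr with a minimum count of 10 and a minimum total of 15), two-sided, with Benjamini-Hochberg adjustment over all genes tested. The difference between lines was fitted over all 12 libraries. The SE of a log2 fold change was derived from the test, as its absolute value over the square root of the quasi-likelihood F. It is therefore approximate, above all for genes with few counts. The procedure was tested on simulated counts with changes set only in genes with high mean counts, so recovery was not tested for genes with few counts. The 9 retinoid genes and the pathway lists were chosen with earlier results of these data known. The named genes were the 9 retinoid genes and, of each pathway list, those called with the smallest p. Of the lists of nuclear receptors and of retinoic acid synthesis and breakdown, all genes that passed the filter were named. A fold against a group with no counts is a bound that sets that group at 3 counts in total, and such limits cover counting error only. Within a line, same-numbered replicates alone and in co-culture did not deviate together (correlations of -0.041 to 0.045), so the numbers were not taken as pairs. Same-numbered co-cultured libraries of HCCLM3 and LX2 were not compared in this way. The fit of the difference between lines took all 12 libraries as independent. Alternatives were other scalings, no filter on low counts, DESeq2 1.42.0, limma 3.58.1 on log2(FPKM + 1) and log2(FPKM + 0.1), a replicate block, and each library left out in turn. Tables were made with Python 3.11.15, pandas 2.3.3 and NumPy 2.4.6.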

Additional observations from a re-analysis of the deposited data

Results flagged for a closer look

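Of the 9 retinoid genes and 30 pathway genes named, 20 passed the edgeR test of the difference between lines (the log2 change in HCCLM3 minus that in LX2), beside 21.2% of all 21511 genes tested. The retinoid genes were selected on these changes and the pathway genes mostly on their smallest p, so nothing is read from this count. Among the retinoid genes the difference was 4.27 for ALDH1A3, 3.26 for SDR16C5, -0.55 for DHRS3, -2.60 for RBP4, -5.07 for ALDH1A1 and -11.63 for DHRS9. The values of RBP4 and ALDH1A1 include an excess in LX2 with HCCLM3 of 0.694% and 0.558% of the HCCLM3 level, inside the range of other HCCLM3 transcripts, whose part was not tested.

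Among the pathway genes the difference was 5.44 for RARRES2, 4.21 for AKR1B1, 2.79 for AKR1C3, 1.98 for CD36, 1.46 for RARRES1, 1.35 for RARB, 1.24 for CYP26B1, 1.02 for TGM2 and 0.93 for STRA6. It was -0.80 for SCARB1, -1.98 for RDH10, -6.37 for FABP5, -7.27 for AKR1B10 and -10.82 for CES1. DHRS9, FABP5 and CES1 had no count in LX2 alone, so their fitted differences depend on the prior count and are no bound. FABP5, AKR1B10 and CES1 are genes of the panel of HCCLM3 transcripts in LX2, with an excess of 0.0974%, 0.167% and 0.834% of their level in HCCLM3 alone. FABP5 rests on 21 counts in LX2 with HCCLM3.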

How the results depend on the processing

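No value changed direction as a call under the alternatives run. With libraries left out in turn, 1918 to 2928 genes were called in HCCLM3, against 3924 with all libraries, and 3 to 4 of the 9 retinoid genes, against 5. With the replicate block, 3 of them were called in HCCLM3, those lost being ALDH1A3 and LRAT. The block gave 3315 genes in HCCLM3, 4795 in LX2 and 4471 for the difference, within 1.5 times the counts without it. Same-numbered samples of a line correlated at under 0.1. Over all pathway genes, 12 to 15 were called in HCCLM3 and 19 to 20 in LX2 with libraries left out in turn, against 16 and 22. Scaling moved the split of calls in HCCLM3: 1829 genes were higher and 2095 lower as reported, 2977 and 1039 by library totals, 3104 and 1106 by limma on log2(FPKM + 1), and 3146 and 1110 by limma on log2(FPKM + 0.1). For the difference it was 2075 and 2482 as reported, 3000 and 1598 by library totals, 3685 and 2304 by limma on log2(FPKM + 1), and 3388 and 1953 by limma on log2(FPKM + 0.1). The pathway genes split 9 and 7 as reported and 13 and 5 or 13 and 6 by limma. Library totals moved the median log2 fold change of all genes in HCCLM3 to 0.207. Among the pathway genes named, calls lost under some alternative were in HCCLM3 BCO2, CES1 and MEIS1, and in LX2 STRA6, PNPLA3 and CYP3A4. RBP4 in LX2 was called by DESeq2 and limma.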
